A study of Homo sapiens with 16 samples.

Results

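BHLHE40 and 9 genes of the circadian clock (BHLHE41, PER1, PER2, PER3, CRY1, CRY2, NR1D1, NR1D2 and DBP) were followed through spheroids of 3 human prostate cancer cell lines after MED12 knockdown. The 10 genes were taken by name from the 62703 genes of the count table, and 9 of them were among the 10566 genes that passed the expression filter; PER2 did not. The set was selected on the fall of BHLHE40 after MED12 knockdown in LNCaP, so every member's siMED12 value in LNCaP is a description without a test, and so are the BHLHE40 levels set against LNCaP. RNA was measured by BRB-seq, which tags the 3′ ends of transcripts, in 16 libraries. LNCaP cells are androgen-dependent and sensitive to the antiandrogen enzalutamide. 22Rv1 is an androgen-responsive line resistant to enzalutamide, and PC3 cells do not respond to the drug. Each line received 25 pmol of a non-targeting siRNA pool (siCtrl, 3 libraries in each line) or of a pool against MED12, a subunit of the Mediator complex (siMED12, 3 libraries in LNCaP, and in 22Rv1 and PC3 only replicates 1 and 3, 2 libraries per line). All groups were grown in 2D for 3 days and as spheroids for 4 days in the same serum-containing medium, and each line is an established culture, not primary tissue. The hour of harvest is not given in the sources used here, so each library gives a single value and not a time course.

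The circadian clock is a feedback loop in which the activators CLOCK and BMAL1 bind E-boxes, short DNA motifs, and switch on genes whose products act back on them. PER and CRY proteins form the repressor complex, NR1D1 and NR1D2 (REV-ERB) repress BMAL1, and DBP is an output activator that binds D-boxes. BHLHE40 (DEC1) and BHLHE41 (DEC2) are related repressors that bind E-boxes and thereby oppose CLOCK and BMAL1, and both are also known as genes induced by low oxygen.

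The canonical E-box, CACGTG, was searched for in RefSeq promoters on GRCh38.p14, taken from 250 bases before to 50 bases after each start. It reads the same on both strands. Promoters were found for all 10 genes, 13 in all, and the motif was present for 4 genes: BHLHE40, BHLHE41, PER1 and NR1D2. Of all 35116 promoters of this length, 7.26% held it. The windows below show these matches, each 5′ to 3′ on the gene's strand with the E-box in capitals, because BHLHE40 and BHLHE41 are E-box-binding proteins whose own promoters hold the motif. None of the windows overlapped an annotated exon of its gene.
BHLHE40, chr3:4979187-4979224, plus strand, E-box 245 bases before the start: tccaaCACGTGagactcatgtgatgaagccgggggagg
BHLHE41, chr12:26125053-26125112, minus strand, E-box 48 bases before the start: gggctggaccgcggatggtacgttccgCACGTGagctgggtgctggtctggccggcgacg
PER1, chr17:8152545-8152604, minus strand, E-box 173 bases before a RefSeq start inside the gene: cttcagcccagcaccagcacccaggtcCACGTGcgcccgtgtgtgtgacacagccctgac
NR1D2, chr3:23945939-23945998, plus strand, E-box 155 bases before a RefSeq start inside the gene: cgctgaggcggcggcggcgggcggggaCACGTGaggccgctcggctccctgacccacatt
NR1D2, chr3:23945989-23946048, plus strand, a second E-box 105 bases before the same start: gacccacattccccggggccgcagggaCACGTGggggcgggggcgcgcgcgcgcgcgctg

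On both strands, the D-box TTATGNAA was found for PER1, PER3 and NR1D2 and in 3.30% of all promoters. The REV-ERB and ROR half-site AGGTCA was found for PER1 and CRY2 and in 13.8% of all promoters. The core ACGTG, which lies within the E-box above and is also the core of the hypoxia response element, was found for 8 of the 10 genes and in 21.4% of all promoters. A match is a string of letters in a window and not a measured binding site.

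On GRCh38 with Gencode release 44, the members are protein-coding genes on 7 chromosomes. BHLHE40 (ENSG00000134107) lies at chr3:4979437-4985323 on the plus strand and BHLHE41 (ENSG00000123095) at chr12:26120030-26125037 on the minus strand. The period genes are PER1 (ENSG00000179094) at chr17:8140472-8156506, PER2 (ENSG00000132326) at chr2:238244044-238290102 and PER3 (ENSG00000049246) at chr1:7784291-7845177. The cryptochrome genes are CRY1 (ENSG00000008405) at chr12:106991364-107093549 and CRY2 (ENSG00000121671) at chr11:45847118-45883248. The REV-ERB genes are NR1D1 (ENSG00000126368) at chr17:40092793-40100589 and NR1D2 (ENSG00000174738) at chr3:23945286-23980617, and DBP (ENSG00000105516) lies at chr19:48630030-48637379. Because 3′ tags were counted, each gene is compared with itself across groups and not with other genes.

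The libraries held 479118 to 993807 counts, so that 1 count was worth 1.05 to 2.07 CPM, the count scaled to a common library total. MED12 itself was low, at 5 to 22 counts in a library. Its level was 11.5 ± 1.48 CPM (SD, n = 3) in LNCaP siCtrl against 8.0 ± 2.04 CPM (n = 3) in siMED12, 19.8 ± 3.39 (n = 3) against 8.20 ± 1.10 (n = 2) in 22Rv1, and 18.5 ± 9.99 (n = 3) against 15.2 ± 0.926 (n = 2) in PC3. The decrease did not pass the test in any line (log2 fold change -0.50, -1.28 and -0.22; adjusted p = 0.878, 0.175 and 0.987). The intervals of these log2 fold changes were -1.45 to 0.45 in LNCaP, -2.21 to -0.35 in 22Rv1 and -1.11 to 0.66 in PC3. In LNCaP and PC3 they included no change, and decreases larger than the lower limits lay outside them. With so few counts the size of the knockdown within these limits could not be judged. The authors report the knockdown as highly efficient in spheroids. The part of the MED12 level in the differences between lines was not tested. As a check of the labels, 5 markers of PC3 (CAV1, VIM, CD44, AXL and LCN2) summed to 1460 to 1623 CPM in PC3 siCtrl and at most 144 CPM in the siCtrl libraries of the other lines.

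There were 3 libraries that stood apart. In 22Rv1 siMED12 replicate 3, 88 genes typical of PC3 were read at 4.80% of their PC3 level, against 0.583% to 1.57% in the other LNCaP and 22Rv1 libraries. In PC3 siMED12 replicate 3, 6 genes typical of LNCaP were read at 2.62% of their LNCaP level, against at most 1.06% elsewhere, and in PC3 siCtrl replicate 3, 20 genes typical of 22Rv1 were read at 2.60%, against at most 1.16% elsewhere. Differences of members that moved without one of these libraries are given with and without it. The labels number the replicates without stating that they came from separate cultures, so p-values measure the spread between these libraries.

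The first comparison concerned the level of each member in control spheroids. Each siCtrl group also enters the siMED12 comparison of its line, so the comparisons share libraries. In bulk RNA, fewer expressing cells and less RNA per cell cannot be told apart. Counts of members called are set beside the share of all tested genes called in the same comparison, which was 43.2% for 22Rv1 against LNCaP, 54.7% for PC3 against LNCaP and 54.9% for PC3 against 22Rv1. Of the 9 tested members, 3, 5 and 4 were past the threshold. These counts include BHLHE40, whose level in LNCaP chose the set, and BHLHE41 and PER3, which passed the expression filter through a single line and therefore had to differ, so the counts are no support for the members.

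BHLHE40 was highest in LNCaP, intermediate in PC3 and close to the limit of counting in 22Rv1. The LNCaP siCtrl libraries held 142, 205 and 161 CPM. The PC3 siCtrl libraries held 42.6, 65.2 and 30.3 CPM. The 22Rv1 siCtrl libraries held 1.30, 5.01 and 5.13 CPM, from 1, 3 and 4 counts. The groups did not overlap. PC3 was 12.2-fold above 22Rv1 (log2 difference 3.61, SE 0.51, adjusted p = 3.77e-07, higher in 3 of 3 libraries), the only BHLHE40 pair of lines that the choice of genes did not involve. Without PC3 siCtrl replicate 3, which stood apart, it was 3.82. LNCaP was 3.57-fold above PC3 and 43.6-fold above 22Rv1, as a description. The second of these rests on 8 counts in 22Rv1, and limma gave a log2 difference of -4.79 in place of -5.45. At the share of LNCaP-typical genes read in the 22Rv1 libraries, LNCaP RNA would have given 0.714 to 1.29 BHLHE40 counts there, beside the 1 to 4 counted. The part of such reads in the 22Rv1 level was not tested.

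BHLHE41 had the opposite distribution and was essentially a PC3 transcript. It was read at 71.0, 77.8 and 98.3 CPM in PC3 siCtrl, at 1.66, 0 and 2.12 CPM in LNCaP siCtrl and at 0, 0 and 1.28 CPM in 22Rv1 siCtrl. The siCtrl sums were 197 counts in PC3, 3 in LNCaP and 1 in 22Rv1. The ratio of scaled counts was 61.0 between PC3 and LNCaP (exact 95% interval 20.6 to 298) and 175 between PC3 and 22Rv1 (31.0 to 6939), intervals that cover counting error only. BHLHE41 passed the expression filter through its PC3 level alone, so a difference between lines had to follow and its calls are no separate support. The lines therefore differed in which DEC gene was read: BHLHE40 without BHLHE41 in LNCaP, both in PC3, and neither above a few counts in 22Rv1.

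**Figure D1:**
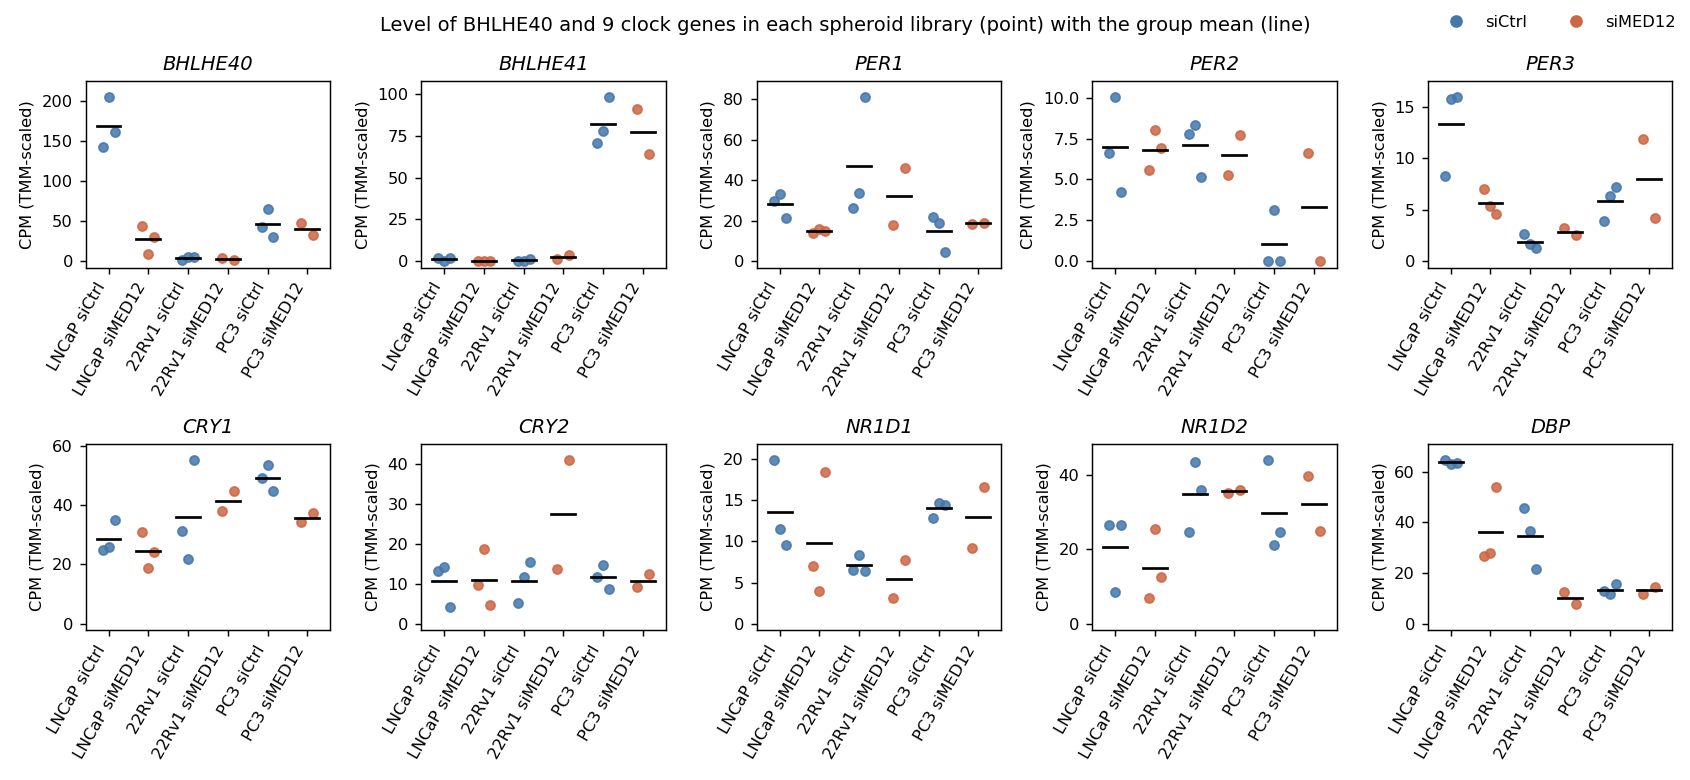
TMM-scaled CPM (vertical axis of each panel, from 0, with its own scale) of the 10 genes in every library, by group on the horizontal axis; points are libraries, blue for siCtrl and orange for siMED12, and the line is the group mean. BHLHE40 fell from 142 to 205 CPM to 9.34 to 43.4 CPM in LNCaP, BHLHE41 was read almost only in PC3, and DBP was highest in LNCaP siCtrl.

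Among the period genes, PER3 was read at 8.28, 15.8 and 15.9 CPM in LNCaP siCtrl, at 3.87, 6.31 and 7.22 CPM in PC3 siCtrl and at 2.60, 1.67 and 1.28 CPM in 22Rv1 siCtrl. No group overlapped another. PER3 passed the expression filter through LNCaP siCtrl alone, so a lower level elsewhere had to follow and its levels are a description without a test. The log2 difference of 22Rv1 from LNCaP was -2.78 (SE 0.59), that of PC3 from LNCaP -1.23 (SE 0.44) and that of PC3 from 22Rv1 was 1.55 (95% interval 0.11 to 2.99).

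PER1 was read at 29.8, 32.9 and 21.2 CPM in LNCaP siCtrl, at 26.0, 33.4 and 80.8 CPM in 22Rv1 siCtrl and at 21.9, 18.9 and 4.33 CPM in PC3 siCtrl. The 22Rv1 values lay above every PC3 value, with 22Rv1 siCtrl replicate 3 high and PC3 siCtrl replicate 3, one of the libraries that stood apart, low. PER1 was lower in PC3 than in 22Rv1 (-1.60, SE 0.40, adjusted p = 0.00104). Without 22Rv1 siCtrl replicate 3 the difference was -0.91 and the call was lost (adjusted p = 0.0677), and without PC3 siCtrl replicate 3 it was -1.23 (adjusted p = 0.0110). The test did not separate LNCaP from 22Rv1 (0.80 higher in 22Rv1, 95% interval 0.062 to 1.54, adjusted p = 0.0745) or from PC3 (-0.80 in PC3, -1.70 to 0.11, adjusted p = 0.129). The difference of 22Rv1 from LNCaP was called without 22Rv1 siCtrl replicate 1 (1.12, adjusted p = 0.0146) or 2 (0.97, adjusted p = 0.0475) and was 0.12 without replicate 3. That of PC3 from LNCaP was -0.43 without PC3 siCtrl replicate 3.

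PER2 was too low for the filter. The siCtrl libraries held 4, 7 and 4 counts in LNCaP, 6, 5 and 4 in 22Rv1 and 0, 3 and 0 in PC3. The siCtrl sums gave a ratio of scaled counts of 5.39 between LNCaP and PC3 (exact 95% interval 1.52 to 29.0) and of 5.63 between 22Rv1 and PC3 (1.59 to 30.4), again for counting error only.

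Of the cryptochromes, CRY1 was called between 1 pair of lines and CRY2 between none. CRY1 was read at 24.9 to 35.0 CPM in LNCaP siCtrl, 21.7 to 55.2 CPM in 22Rv1 siCtrl and 44.8 to 53.6 CPM in PC3 siCtrl. It was higher in PC3 than in LNCaP (0.76, SE 0.26, adjusted p = 0.0153), a call lost without LNCaP siCtrl replicate 2 (adjusted p = 0.0544) or PC3 siCtrl replicate 2 (adjusted p = 0.0600). The difference of PC3 from 22Rv1 was 0.42 (95% interval -0.098 to 0.93) and that of 22Rv1 from LNCaP was 0.34 (-0.24 to 0.92). The first of these was 0.86 and called without 22Rv1 siCtrl replicate 3 (adjusted p = 0.00973). CRY2 ran from 4.24 to 15.4 CPM over the 9 siCtrl libraries, and no pair of lines was separated (log2 differences of 0.12 to 0.27, with 95% intervals that together spanned -1.03 to 1.36).

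The REV-ERB genes were not called between any lines. NR1D1 was read at 9.54 to 19.9 CPM in LNCaP siCtrl, 6.42 to 8.36 CPM in 22Rv1 siCtrl and 12.9 to 14.7 CPM in PC3 siCtrl. The 22Rv1 values, from 5 counts in each library, lay below all others. The difference of PC3 from 22Rv1 was 0.99 (95% interval -0.0053 to 1.99, adjusted p = 0.0856) and that of 22Rv1 from LNCaP was -0.88 (-1.91 to 0.15, adjusted p = 0.166). NR1D2 ran from 8.59 to 26.5 CPM in LNCaP siCtrl, 24.7 to 43.5 CPM in 22Rv1 siCtrl and 21.0 to 43.9 CPM in PC3 siCtrl. Its largest difference was that of 22Rv1 from LNCaP, at 0.71 (-0.032 to 1.44, adjusted p = 0.117).

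DBP, the D-box output activator, was graded across the lines. LNCaP siCtrl held 64.6, 63.0 and 63.6 CPM, 22Rv1 siCtrl 45.5, 36.8 and 21.8 CPM, and PC3 siCtrl 12.9, 11.6 and 15.9 CPM. The groups did not overlap, and all of the differences passed the test. DBP was lower in 22Rv1 than in LNCaP (-0.88, SE 0.25, adjusted p = 0.00564), lower in PC3 than in LNCaP (-2.25, SE 0.30, adjusted p = 1.61e-07) and lower in PC3 than in 22Rv1 (-1.37, SE 0.34, adjusted p = 0.00106). Without 22Rv1 siCtrl replicate 3 the first of these was -0.60 and no longer called (adjusted p = 0.0743).

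The second comparison asked how the members responded to MED12 knockdown in each line. In LNCaP, the comparison that chose the set, BHLHE40 was at 43.4, 9.34 and 29.9 CPM in the siMED12 libraries against 142, 205 and 161 CPM in siCtrl. Every siMED12 library lay below every siCtrl library, and replicate 2 was the lowest. The mean fell from 169 ± 32.0 CPM (n = 3) to 27.5 ± 17.1 CPM (n = 3), which is 6.15-fold lower (log2 fold change -2.62, SE 0.27, 95% interval -3.17 to -2.07). Without siMED12 replicate 2 it was -2.23. The share of counts from mitochondrial genes was 10.3% to 12.9% in LNCaP siMED12, highest in replicate 2, against 8.60% to 10.1% in siCtrl, and its part in the fall was not tested. The residual mean in LNCaP siMED12 lay below that in PC3 siCtrl, at 46.0 ± 17.7 CPM (n = 3). The ranges, 9.34 to 43.4 CPM and 30.3 to 65.2 CPM, overlapped, and this comparison was not tested.

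Other members were also lower in LNCaP siMED12, by smaller amounts. DBP was at 26.6, 28.0 and 54.0 CPM against 63.0 to 64.6 CPM in siCtrl (-0.78, SE 0.25). PER1 was at 14.0, 16 and 14.9 CPM against 21.2 to 32.9 CPM (-0.86, SE 0.45). PER3 was at 6.99, 5.34 and 4.60 CPM against 8.28 to 15.9 CPM (-1.28, SE 0.45). In these 3 genes and in BHLHE40 no siMED12 value reached the siCtrl values, whereas all other members overlapped. PER3 passed the expression filter through LNCaP siCtrl alone, so a lower level in siMED12 had to follow. Its libraries held 5, 4 and 4 counts in siMED12 against 5, 11 and 15 in siCtrl, so its separation rests on few counts and on the scaling. Groups did not overlap in 4 of the 9 tested members, beside 12.6% of all tested genes, and 1 member, BHLHE40, was past the threshold that 0.416% of all tested genes passed (44 genes, or 117 with the replicate block). Nothing is read from these shares, because the LNCaP contrast chose the set.

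CRY1 (18.7 to 30.8 CPM in LNCaP siMED12), CRY2 (4.60 to 18.7 CPM), NR1D1 (4.00 to 18.4 CPM) and NR1D2 (6.99 to 25.4 CPM) overlapped their siCtrl values, with log2 fold changes of -0.26 (SE 0.30), 0.12 (SE 0.55), -0.34 (SE 0.45) and -0.47 (SE 0.42). PER2 held 4, 6 and 6 counts against 4, 7 and 4. BHLHE41 held 0 counts in all 3 siMED12 libraries against 1, 0 and 2, too few for a fold.

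In 22Rv1, DBP was the only member that passed the test, and it fell. It was read at 12.7 and 7.70 CPM in siMED12 against 45.5, 36.8 and 21.8 CPM in siCtrl. Both siMED12 libraries lay below all 3 siCtrl libraries. The mean decreased from 34.7 ± 12.0 CPM (n = 3) to 10.2 ± 3.55 CPM (n = 2), 3.27-fold lower (log2 fold change -1.71, SE 0.40, 95% interval -2.53 to -0.89, adjusted p = 0.0171). One of the 9 tested members was thus called, beside 1.84% of all tested genes, and 1 of 9 did not overlap, beside 26.6%. The direction held without each library in turn (-2.14 to -1.43), but the call was lost without siCtrl replicate 1 (adjusted p = 0.107), siCtrl replicate 2 (0.0512), siMED12 replicate 1 (0.0831) or siMED12 replicate 3 (0.173), where 1 siMED12 library is taken to vary like the others.

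The other 22Rv1 members did not pass the test. CRY2 was at 13.8 and 41.0 CPM against 5.21, 11.7 and 15.4 CPM (1.28, 95% interval 0.30 to 2.27, adjusted p = 0.218). The high value came from siMED12 replicate 3, which stood apart, and without it the log2 fold change was 0.36. PER1 was at 18.0 and 46.2 CPM against 26.0, 33.4 and 80.8 CPM (-0.62, 95% interval -1.40 to 0.17, adjusted p = 0.569). CRY1 (0.16, -0.43 to 0.74), NR1D1 (-0.41, -1.76 to 0.95) and NR1D2 (0.053, -0.66 to 0.77) had intervals on both sides of 0. Without siMED12 replicate 3 the values were -1.40 for PER1, 0.043 for CRY1, -1.10 for NR1D1 and 0.035 for NR1D2, and no member was called.

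BHLHE40, BHLHE41 and PER3 averaged at most 3 counts in both 22Rv1 groups, so a change was not detectable at this depth and no fold is given. BHLHE40 held 4 and 1 counts in 22Rv1 siMED12 against 1, 3 and 4 in siCtrl. BHLHE41 held 1 and 3 counts against 0, 0 and 1, and at the share of PC3-typical genes read in siMED12 replicate 3, PC3 RNA would have given 3.08 of the 3 counts in that library. PER3 held at most 3 counts in a library. PER2 held 5 and 6 counts against 6, 5 and 4.

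In PC3 no member passed the test, beside 0% of all tested genes. BHLHE40 was at 47.5 and 33.2 CPM in siMED12 against 42.6, 65.2 and 30.3 CPM in siCtrl, inside the range of the controls (log2 fold change -0.19, SE 0.35, 95% interval -0.91 to 0.53, adjusted p = 0.987). It was -0.39 without siCtrl replicate 3 and 0.0021 without siMED12 replicate 3. The LNCaP value was -2.62, and the difference between these lines was not tested because the LNCaP value chose the gene. At the LNCaP-typical share, LNCaP RNA would have given 2.14 of the 16 BHLHE40 counts of PC3 siMED12 replicate 3. BHLHE41, which was read mainly in PC3, was at 91.0 and 64.3 CPM against 71.0, 77.8 and 98.3 CPM (-0.037, -0.51 to 0.44, adjusted p = 1).

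DBP in PC3 was at 11.9 and 14.5 CPM against 12.9, 11.6 and 15.9 CPM (-0.036, 95% interval -1.05 to 0.98). CRY1 was the only member whose groups did not overlap, at 34.3 and 37.3 CPM against 49.0, 53.6 and 44.8 CPM, and it did not pass the test (-0.48, -1.09 to 0.13, adjusted p = 0.975). One of 9 not overlapping stands beside 20.7% of all tested genes. PER1 (0.24, -0.91 to 1.40), PER3 (0.59, -0.58 to 1.77), CRY2 (-0.19, -1.46 to 1.09), NR1D1 (-0.21, -1.24 to 0.83) and NR1D2 (0.19, -0.60 to 0.98) all had intervals on both sides of 0. Without siCtrl replicate 3 the value of PER1 was -0.13, and without siMED12 replicate 3 those of PER3, CRY2, NR1D1 and NR1D2 were 1.02, -0.37, -0.60 and 0.42. No member was called without either library. PER2 held 5 and 0 counts against 0, 3 and 0. Over all genes, edgeR called 0 in PC3, with 527 at an unadjusted p under 0.05, and limma, DESeq2 and the legacy edgeR test called 1, 0 and 0.

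**Figure D2:**
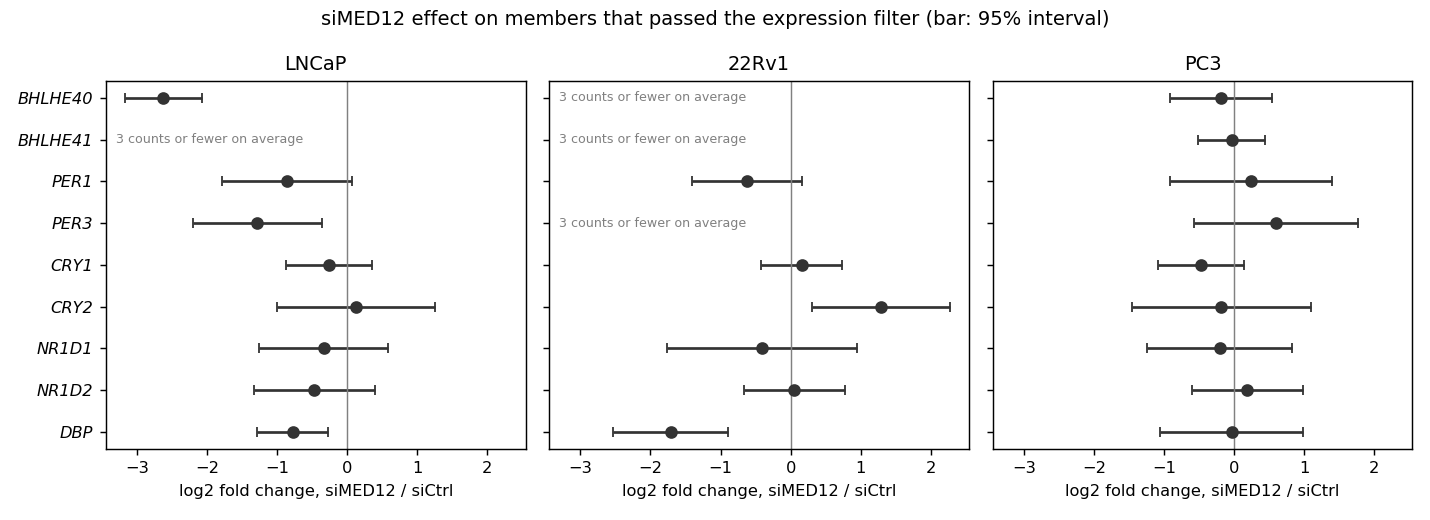
Log2 fold change, siMED12 against siCtrl (horizontal axis), of the 9 members that passed the expression filter (vertical axis) in LNCaP, 22Rv1 and PC3; bars are 95% intervals, and genes with 3 counts or fewer on average in both groups have no value. BHLHE40 lies at -2.62 in LNCaP and at -0.19 in PC3, and DBP lies at -0.78, -1.71 and -0.036 in the 3 lines.

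The difference between the 22Rv1 and the PC3 effect was tested directly for the 6 members with enough counts, and none passed, beside 0.0946% of all tested genes. The DBP effect was 1.67 lower on the log2 scale in 22Rv1 than in PC3 (difference -1.67, SE 0.67, 95% interval -3.04 to -0.31), which did not survive the adjustment over all genes (adjusted p = 0.432). The decrease of DBP in 22Rv1 is therefore not shown to differ from PC3. CRY2 (1.47, -0.13 to 3.07, adjusted p = 0.607), CRY1 (0.63, -0.21 to 1.48) and PER1 (-0.86, -2.27 to 0.55) had intervals that included 0, as did NR1D1 (-0.20, -1.88 to 1.49) and NR1D2 (-0.14, -1.20 to 0.93). Without 22Rv1 siMED12 replicate 3 the difference was 0.54 for CRY2, -1.64 for PER1 and -1.39 for DBP, and none passed.

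The rest of the clock was described with a list of 35 further genes, including the activators, the ROR receptors, the PAR bZIP factors and the kinases that act on PER and CRY. Of these, 27 passed the filter, with 4, 0 and 5 at an unadjusted p under 0.05 in LNCaP, 22Rv1 and PC3. edgeR called 0 of the 27 in any line, beside 0.416%, 1.84% and 0% of all tested genes. With shares this low, 0 of 27 does not set the list apart. The median log2 fold change of the 27 was 0.011, -0.10 and 0.12, beside -0.0039, 0.0061 and -0.038 over all tested genes. Without genes that averaged 3 counts or fewer in both groups the medians were 0.024 in LNCaP and 0.15 in PC3. In LNCaP, the line in which BHLHE40 fell, the median of the list thus lay close to that of all genes.

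CIART, which encodes a repressor of CLOCK and BMAL1, came closest. It was read at 35.0, 14.7 and 20.7 CPM in LNCaP siMED12 against 38.1, 48.7 and 51.9 CPM in siCtrl. No siMED12 library reached the siCtrl values, but the difference did not pass the test (-1.01, SE 0.27, adjusted p = 0.105). In LNCaP, where same-numbered libraries varied together, the fit with the replicate block gave -1.02 and an adjusted p = 0.0473. Leaving out siMED12 replicate 1 gave -1.38 and 0.0182, whereas leaving out siMED12 replicate 2 gave -0.78. Over the single libraries left out, the adjusted p of CIART in LNCaP reached 0.719. CIART did not pass in 22Rv1 (0.42, 95% interval -0.45 to 1.28) or PC3 (-0.037, -0.72 to 0.65).

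Of the activators, 3 were read mainly in PC3. NPAS2, BMAL2 and CLOCK passed the expression filter through their PC3 level, so a difference between lines had to follow and their levels are a description. NPAS2, which can take the place of CLOCK, was read at 93.9 ± 9.55 CPM in PC3 siCtrl against 5.64 ± 2.43 CPM in LNCaP siCtrl and 7.07 ± 3.99 CPM in 22Rv1 siCtrl (n = 3 each). BMAL2, a relative of BMAL1, was at 45.3 ± 6.85 CPM in PC3 siCtrl against 6.32 ± 2.68 and 7.47 ± 5.15 CPM. CLOCK was at 20.4 ± 2.36 CPM in PC3 siCtrl against 5.61 ± 2.03 and 6.28 ± 2.83 CPM. PC3, with the lowest DBP and almost no PER2, thus had the highest levels of these 3 activators, as values side by side. Of the 27 other clock genes, these 3 included, 8 (29.6%) were past the threshold between 22Rv1 and LNCaP, 12 (44.4%) between PC3 and LNCaP and 13 (48.1%) between PC3 and 22Rv1, beside 43.2%, 54.7% and 54.9% of all tested genes.

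After MED12 knockdown the log2 fold changes in LNCaP, 22Rv1 and PC3 were 0.56, 0.31 and 0.56 for CLOCK, 0.039, 0.10 and 0.70 for BMAL2 and -0.052, 0.41 and -0.050 for NPAS2. They were -0.80, 0.59 and -0.36 for NFIL3, a D-box repressor, and 1.35, -0.37 and -0.15 for TEF, a D-box activator related to DBP. None passed the test (lowest adjusted p = 0.387, for TEF in LNCaP). BMAL1, RORA and HLF did not pass the filter and held 1 to 6, 0 to 6 and 0 to 4 counts in a library.

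BHLHE40 and BHLHE41 being known hypoxia-induced genes, 30 other genes of that kind were described as well. This list had been seen to fall in earlier results of these data and is not independent evidence. In LNCaP all 25 tested genes of the list had a log2 fold change below 0, beside 50.4% of all tested genes. Of the 25, 10 were past the threshold and 0 rose, beside 0.416% of all tested genes called. The median was -0.83, or -0.76 over the 22 genes with more than 3 counts on average in a group. PFKFB4 and DDIT4, a regulator of glycolysis and an inhibitor of mTOR signalling, had the lowest p there (-1.39, SE 0.25, adjusted p = 0.00307, and -1.21, SE 0.24, adjusted p = 0.0113). The call of PFKFB4 was lost without LNCaP siCtrl replicate 3 (adjusted p = 0.0594), and that of DDIT4 with DESeq2 (0.314), with limma (0.105) and without siCtrl replicates 2 (0.165) or 3 (0.0804) or siMED12 replicates 2 (0.0809) or 3 (0.0745). The number of genes called was 4 with DESeq2 and 6 with limma. It was 5, 1 and 0 without LNCaP siCtrl replicates 1, 2 and 3 and 1 and 6 without siMED12 replicates 2 and 3.

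In 22Rv1, where BHLHE40 was at 1 to 4 counts, 22 of the 25 tested hypoxia-induced genes had a log2 fold change below 0 and 2 above 0 (median -0.57). Of all tested genes 48.7% were below 0. Past the threshold were 5 of the 25, all lower, beside 1.84% of all tested genes. CA12, a carbonic anhydrase, decreased to -1.37 on the log2 scale (SE 0.16, adjusted p = 5.18e-06), and DDIT4 to -1.82 (SE 0.31, adjusted p = 0.000578). The count was 3 with DESeq2 or limma and 2 without siMED12 replicate 1, where DDIT4 gave -1.17 (adjusted p = 0.0831), and DDIT4 gave -2.86 without siMED12 replicate 3. In PC3 none of the 25 passed the test, beside 0% of all tested genes (1 at an unadjusted p under 0.05, and 0 with the other tools). The median was -0.11. The lowest p there belonged to ANGPTL4 (-1.80, SE 0.68, adjusted p = 0.891) and ANKRD37 (-1.24, SE 0.68, adjusted p = 0.974). VEGFA, the angiogenic factor, did not pass in LNCaP (-0.45, adjusted p = 0.78), 22Rv1 (-0.86, adjusted p = 0.191) or PC3 (-0.032, adjusted p = 1). In 22Rv1 it passed without siMED12 replicate 3, the library that stood apart (-1.64, adjusted p = 0.0228), and without the expression filter (adjusted p = 0.0182). CA9 averaged more than 3 counts in PC3 only, where its value was -0.094 (SE 0.52), and NDRG1 did not pass the filter.

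**Figure D3:**
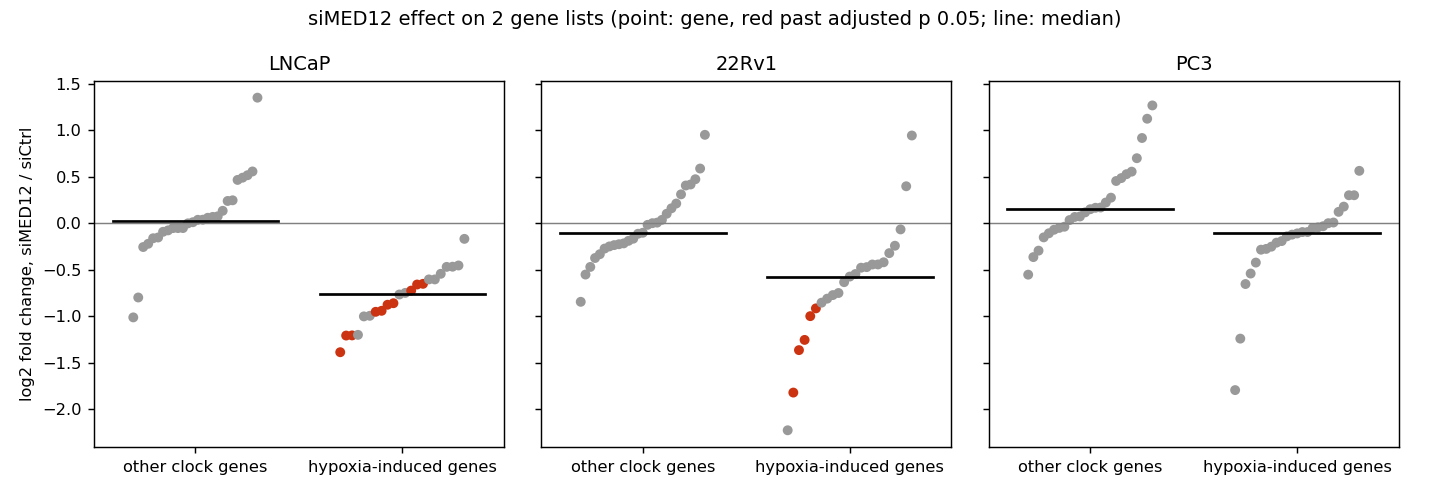
Log2 fold change, siMED12 against siCtrl (vertical axis), of the other clock genes and the hypoxia-induced genes in LNCaP, 22Rv1 and PC3, for genes with more than 3 counts on average in either group; points are genes, red past an adjusted p of 0.05, and lines are medians. The other clock genes spread around 0 with 0 calls in each line, and 10 hypoxia-induced genes in LNCaP and 5 in 22Rv1 are red, all below 0.

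Library by library, BHLHE40 and the hypoxia list had the same order in LNCaP siMED12. On the log2 scale, BHLHE40 lay 1.89, 3.83 and 2.39 below its siCtrl mean in replicates 1, 2 and 3 (deviations of -1.89, -3.83 and -2.39), and the median of the 25 hypoxia-induced genes deviated by -0.40, -1.18 and -0.58. The median of the 27 other clock genes deviated by -0.063, 0.063 and -0.056. In PC3 siMED12, where BHLHE40 deviated by 0.11 and -0.38, the hypoxia median deviated by -0.11 and -0.14. In 22Rv1 siMED12 the hypoxia median deviated by -0.61 and -0.51 with BHLHE40 near the limit of counting. The part of the hypoxia-induced genes in the fall of BHLHE40 was not tested.

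**Figure D4:**
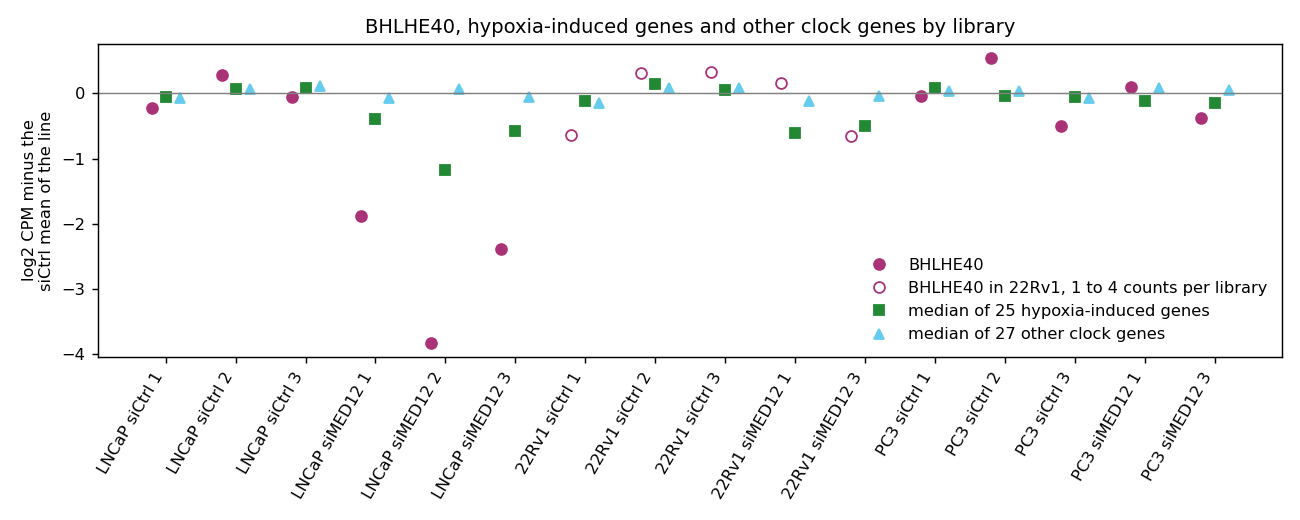
Log2 CPM minus the siCtrl mean of the line (vertical axis) in each of the 16 libraries (horizontal axis), for BHLHE40 (circles), the median of 25 hypoxia-induced genes (squares) and the median of 27 other clock genes (triangles); open circles mark BHLHE40 in 22Rv1, at 1 to 4 counts. In LNCaP siMED12 BHLHE40 reaches -3.83 and the hypoxia median -1.18, both in replicate 2, while the median of the other clock genes stays between -0.063 and 0.063.

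The genes whose level followed BHLHE40 most closely were found by Pearson correlation of log2 CPM among the 6719 tested genes whose mean reached 20 CPM. These are descriptions, since the 16 points share their line, treatment and library. Over all 16 libraries the nearest were WDR45B (r = 0.957), CIART (0.937), SPRY1 (0.932), TSC22D1 (0.932) and EIF4G2 (0.919), beside a median r of 0.0042 over all genes. Like BHLHE40, by which they were picked, all 5 were highest in LNCaP siCtrl and lowest in a 22Rv1 group, with EIF4G2 spanning only 414 to 737 CPM between group means. CIART, the second, was the only one of them on the clock list.

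After the mean of each line was subtracted, the nearest were DNAJB1 (r = 0.886), a heat shock co-chaperone, the glycolytic enzymes GPI (0.875) and PGK1 (0.874), PLOD1 (0.862), a collagen lysyl hydroxylase, and SLC2A1 (0.861), the glucose transporter. PGK1 and SLC2A1 belong to the hypoxia list, and nothing is read from this overlap. Within lines BHLHE40 varied most by its fall in LNCaP siMED12, so a fall of genes picked by this r had to follow there. In LNCaP the log2 fold changes of the 5 genes were -1.69, -0.86, -0.86, -1.05 and -0.88, as a description. DNAJB1 went from 328 ± 95.9 CPM (n = 3) to 101 ± 6.70 CPM (n = 3) in LNCaP and from 477 ± 64.3 CPM (n = 3) to 453 ± 62.7 CPM (n = 2) in PC3. With rank correlation only 2 of the 5 genes stayed among the nearest 20. Without LNCaP siMED12 replicate 2 also 2 of 5 did, so this list rests on that library.

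**Figure D5:**
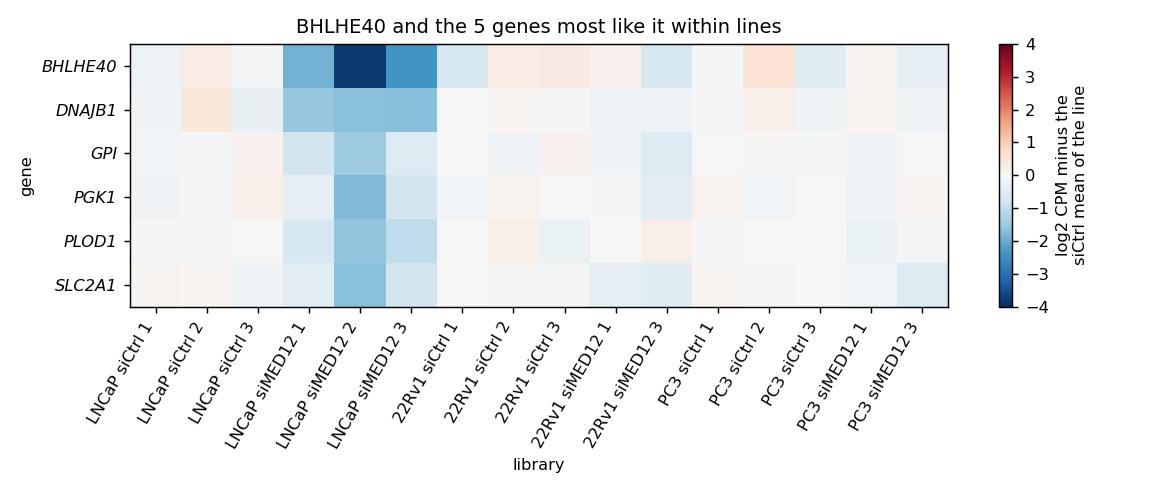
Log2 CPM minus the siCtrl mean of the line (colour, blue below 0 and red above) for BHLHE40 and the 5 genes most like it within lines (rows) in the 16 libraries (columns). The blue cells gather in the 3 LNCaP siMED12 libraries and are darkest in replicate 2, where BHLHE40 reaches -3.83. The genes were picked by their r with BHLHE40, so this pattern had to follow.

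Within lines, the members themselves followed BHLHE40 to different degrees. The r over the 16 libraries after subtracting line means was 0.62 for PER3, 0.44 for PER1, 0.42 for DBP, 0.38 for NR1D1, 0.33 for CRY1, 0.27 for BHLHE41, 0.0092 for NR1D2 and -0.12 for CRY2. Before the subtraction it was 0.86 for PER3 and -0.26 for PER1. PER3 was thus the member whose levels lay closest to those of BHLHE40, high in LNCaP siCtrl and lowest in 22Rv1. PER3 passed the expression filter through LNCaP siCtrl alone, and BHLHE40 was chosen on its fall in LNCaP. Their likeness therefore had in part to follow and is a description. For PER1 the r with BHLHE40 was thus positive within lines and negative before the subtraction. Every r within lines includes the LNCaP libraries that chose the set and the 22Rv1 libraries, where BHLHE40 held 1 to 4 counts.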

How the data were processed

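Spheroids of LNCaP, 22Rv1 and PC3 cells were profiled by BRB-seq in 16 libraries. The authors counted reads with STARsolo on GRCh38.p13 with Gencode release 43, without stating whether molecular identifiers were collapsed. Raw counts per gene make up the count table that was deposited by the authors. The deposited log2 CPM table, which the authors made with edgeR, was recomputed from the counts to within 1e-09.

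Libraries were grouped by label into 6 groups. The expression filter (minimum count 10, minimum total 15) kept 10566 genes, with TMM scaling, a trimmed mean of log ratios between libraries. Differences were tested with the 2-sided quasi-likelihood test of edgeR 4.0.16 in R 4.3.3, in 1 fit of the 16 libraries with 6 group means, and adjusted by Benjamini and Hochberg over all tested genes of a comparison, with a threshold of 0.05. The SE was the log2 fold change divided by the root of F, and 95% intervals used the t distribution. No fold is given where both groups averaged at most 3 counts. Replicate pairs varied 1.50 to 3.04 times as much as counting alone, so no library was a copy.

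The members and lists were chosen with earlier results of these data known. Named genes were all members, MED12, 8 clock genes set by name, any other clock gene past the threshold, VEGFA, NDRG1, CA9, the 2 hypoxia-induced genes of lowest p in each line, and the 5 genes most like BHLHE40 by each measure. Markers of PC3 are given as a sum, and another marker list is not reported here. Alternatives were scaling by relative log expression (RLE), DESeq2 1.42.0, limma 3.58.1, all genes with a count, the legacy edgeR test (chosen after seeing the data), a replicate block, rank correlation, and leaving out each library.

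Same-numbered siCtrl and siMED12 libraries of LNCaP deviated together (r = 0.177, 0.132 and 0.135 for replicates 1, 2 and 3), which was taken as pairing. The main fit left pairing out in every line, and the replicate block is given as an alternative. Genes typical of a line were those at 50 CPM or more in that line and at most 2% of it in the others. Coordinates come from Gencode release 44, and promoter sequences from RefSeq on GRCh38.p14.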

Additional observations from a re-analysis of the deposited data

Results flagged for a closer look

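PER1 moved in opposite directions in LNCaP and PC3. All 3 LNCaP siMED12 libraries lay below the siCtrl mean of their line and both PC3 siMED12 libraries lay above theirs. The PC3 effect minus the LNCaP effect was 1.10 on the log2 scale, and this difference was not tested, because the LNCaP comparison chose the gene set. In PC3 the siMED12 libraries, at 18.5 and 18.7 CPM, lay within the range of the siCtrl libraries (4.33 to 21.9 CPM), and the mean there is lowered by siCtrl replicate 3, at 3 counts. Without that library the PC3 log2 fold change of PER1 was -0.13.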

How the results depend on the processing

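The fall of BHLHE40 in LNCaP was -2.70 to -2.62 with other scalings, tests, filters and the block and -3.05 to -2.23 without single libraries. DBP in 22Rv1 kept its call under RLE, DESeq2, limma, the wider filter, the legacy test and the replicate block (adjusted p = 0.0037 to 0.041). Counts that moved were the other clock genes in LNCaP, 1 with the replicate block against 0, hypoxia-induced genes in LNCaP, 4 with DESeq2 and 6 with limma against 10, and those in 22Rv1, 3 with DESeq2, 3 with limma and 9 without the expression filter, against 5. Of the 5 genes most like BHLHE40 within lines, 2 stayed among the nearest 20 under rank correlation. The cause was not tested.

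In 22Rv1 (r = 0.19 and 0.25) and PC3 (r = 0.12 and 0.079) the r of same-numbered libraries was positive as well. With 2 siMED12 libraries in a line, their deviations are opposite by construction, so pairing could not be judged there. With the replicate block, log2 values changed sign for CRY1 in 22Rv1 (-0.038), TEF in 22Rv1 (0.034), BHLHE40 (0.15), CRY2 (0.036), NR1D2 (-0.094), NPAS2 (0.048) and CIART (0.077) in PC3, and NR1D2 between 22Rv1 and PC3 (0.33). No call of a member changed with the block, and over all genes 117, 312 and 20 were called in LNCaP, 22Rv1 and PC3 against 44, 194 and 0. Among siCtrl levels, PER1 was called between 22Rv1 and LNCaP without the expression filter (adjusted p = 0.0193). With limma, NPAS2 in LNCaP (0.038) and VEGFA in PC3 (0.011) changed sign.

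Without single libraries, members called in 22Rv1 were 0 (without siCtrl replicate 1) to 1 (without siCtrl replicate 3). Between PC3 and LNCaP siCtrl they were 3 to 5 (3 without LNCaP siCtrl replicate 2). Members in LNCaP are a description, and DBP there was -1.20 without siMED12 replicate 3. Other clock genes called in LNCaP were 0 to 1, and hypoxia-induced genes 0 to 11 in LNCaP and 6 in 22Rv1 without siCtrl replicate 1. Of the 5 genes nearest BHLHE40 within lines, 2 to 5 stayed among the nearest 20. Log2 ranges that crossed 0 in 22Rv1 were -1.40 to 0.075 for PER1, -0.067 to 0.61 for CRY1, -1.10 to 0.13 for NR1D1, -0.15 to 0.22 for NR1D2, -0.21 to 0.72 for BMAL2, -0.70 to 1.12 for NPAS2, -0.64 to 0.037 for TEF and -0.014 to 0.70 for CIART. In PC3 they were -0.50 to 0.18 for BHLHE40, -0.34 to 0.15 for BHLHE41, -0.13 to 0.54 for PER1, -0.46 to 1.02 for PER3, -0.37 to 0.065 for CRY2, -0.60 to 0.25 for NR1D1, -0.23 to 0.57 for NR1D2, -0.16 to 0.14 for DBP, -0.21 to 0.15 for NPAS2, -0.75 to 0.030 for NFIL3, -0.48 to 0.52 for TEF, -0.16 to 0.077 for CIART, -0.38 to 0.36 for VEGFA, -0.71 to 0.22 for CA9 and -0.63 to 0.25 for MED12. In LNCaP they were -0.23 to 0.37 for BMAL2, -0.33 to 0.28 for NPAS2, -0.49 to 0.55 for CRY2 and -1.20 to 0.025 for NR1D1. Between the 22Rv1 and PC3 effects they were -0.89 to 0.34 for NR1D1 and -0.52 to 0.28 for NR1D2. For siCtrl levels they were -0.098 to 0.56 for CRY1 and -0.35 to 0.48 for CRY2 in 22Rv1 against LNCaP, -0.20 to 0.61 for CRY2 and -0.12 to 0.44 for NR1D1 in PC3 against LNCaP, and -0.20 to 0.55 for CRY2 and -0.59 to 0.022 for NR1D2 in PC3 against 22Rv1. At 479118 to 993807 counts a library, members under 10 CPM rest on few counts. This limits BHLHE40, BHLHE41, PER3 and NR1D1 in 22Rv1, BHLHE41 in LNCaP and PER2 throughout. It also limits PER3 in LNCaP siMED12 and PC3 and CRY2 in some libraries.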
